A study of Mus musculus with 12 samples.

Results

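The genes described are 10 regulators of the epithelial-mesenchymal transition (EMT), chosen by name from a table of 47642 mouse genes: Snai1, Snai2, Twist1, Twist2, Zeb1, Zeb2, Esrp1, Esrp2, Grhl2 and Ovol1. All 10 were found by their Ensembl identifiers, and 9 of them averaged 1 normalized count or more and were tested. Transcript abundance was measured by RNA-seq in mIMCD3 cells, a line from the inner medullary collecting duct of a mouse that carried the early region of simian virus SV40 as a transgene, so that all 3 genotypes share this immortalizing region. There were 12 libraries, 4 each from wild-type cells, from 1 Pkd1-/- clone, made with CRISPR, and from 1 Pkd2-/- clone, made with TALENs. Pkd1 and Pkd2 encode the polycystins that are lost in autosomal dominant polycystic kidney disease. Each library came from a separate dish, and 4 of the 6 dishes grown per genotype were sequenced, 4 days after full confluency. The spread between libraries is therefore a spread between dishes of 1 line and does not cover the variation between clones.

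In an EMT, epithelial cells loosen their junctions and polarity and take up genes of migratory cells. The Snail (Snai1, Snai2) and ZEB (Zeb1, Zeb2) zinc finger factors bind E-box sequences and repress junction genes such as Cdh1, and the Twist basic helix-loop-helix factors (Twist1, Twist2) act on the same side. On the epithelial side, Esrp1 and Esrp2 are RNA-binding proteins that set the epithelial choice of exons, Grhl2 activates junction genes, and Ovol1 represses mesenchymal genes, Zeb1 among them. In the kidney, these factors are studied in the forming nephron, in injured tubules and in fibrosis.

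The values are normalized counts, that is, read counts per gene that the authors divided by a size factor for each library and rounded. A gene was called higher or lower where limma gave an adjusted p (Benjamini-Hochberg over all 18552 genes tested) under 0.05 and the log2 fold change of (normalized count + 1) was at least 1 in size. The libraries summed to 25966273 to 28027792 normalized counts after this scaling, which is not their read depth. Pkd1 fell from 782.2 ± 112 (SD, n = 4) normalized counts in wild-type to 41.8 ± 8.81 in Pkd1-/- cells (log2 fold change -4.21, limma adjusted p = 1.47e-13). Gene-level counts do not check the Pkd2-/- label, since the deletion removed only part of the gene: Pkd2 had 3971 normalized counts in wild-type and 3986 in Pkd2-/- cells. Of 16 collecting duct markers, 11 averaged 10 normalized counts or more in each genotype, whereas the water channel genes Aqp2 and Aqp4 were at 0 in every library. Aqp3, Avpr2 and Scnn1b averaged at most 3.5 in each genotype. Among the 11, Krt8, Krt18, Epcam and Cdh1 are also epithelial targets in a list described below, so they are not particular to the collecting duct.

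The upstream sequences of the members that were higher in Pkd1-/- cells, and that of Snai1 for comparison, are shown because these genes carry the differences reported here. RefSeq promoter windows (GRCm38.p6, 250 bases before to 50 bases after a transcription start) were matched for 4 of the 10 members, and the 250 bases before the start are printed 5′ to 3′ on the strand of the gene. Capitals mark a motif found by a search of both strands.

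Twist1, chr12:33957421-33957670, plus strand: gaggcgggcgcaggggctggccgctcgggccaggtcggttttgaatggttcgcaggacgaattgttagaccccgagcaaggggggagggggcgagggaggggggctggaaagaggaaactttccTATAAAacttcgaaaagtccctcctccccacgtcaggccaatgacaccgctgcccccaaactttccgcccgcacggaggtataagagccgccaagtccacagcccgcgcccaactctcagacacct
Twist2, chr1:91801211-91801460, plus strand: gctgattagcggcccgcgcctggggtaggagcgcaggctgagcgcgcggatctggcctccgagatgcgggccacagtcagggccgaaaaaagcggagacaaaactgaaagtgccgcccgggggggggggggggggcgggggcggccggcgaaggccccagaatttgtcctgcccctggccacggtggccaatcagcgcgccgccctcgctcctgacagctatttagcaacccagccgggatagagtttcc
Zeb2, chr2:45117443-45117692, minus strand, the most upstream of its 4 starts: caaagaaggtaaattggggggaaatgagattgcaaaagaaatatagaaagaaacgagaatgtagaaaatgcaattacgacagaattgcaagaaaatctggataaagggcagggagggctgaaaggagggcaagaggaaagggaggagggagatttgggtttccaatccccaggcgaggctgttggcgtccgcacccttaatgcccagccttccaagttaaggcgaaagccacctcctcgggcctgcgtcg
Snai1, chr2:167537945-167538194, plus strand: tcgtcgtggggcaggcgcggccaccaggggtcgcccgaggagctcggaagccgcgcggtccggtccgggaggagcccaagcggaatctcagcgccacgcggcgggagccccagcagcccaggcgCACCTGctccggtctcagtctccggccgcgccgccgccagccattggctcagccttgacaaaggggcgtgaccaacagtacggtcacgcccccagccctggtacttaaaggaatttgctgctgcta

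The E-box CACCTG, to which Snail and ZEB factors bind, was found in the window of Snai1 alone among the 4 matched members, 126 bases before the start, and 20.2% of 32851 promoter windows held it on either strand. The letters TATAAA were found in the Twist1 window, also 126 bases before the start, and in 13.6% of all windows. The Grainyhead-like motif AACCNGTT was in no window of these 4 genes and in 2.09% of all windows. The printed stretches of Snai1 (70% G or C), Twist2 (68.8%) and Twist1 (62.4%) were richer in G and C than the median promoter (52.4%). The printed stretch of Zeb2 held 49.6%, and the windows at its other 3 starts held 55.6%, 54% and 57.6%. No motif searched was shared by the 3 genes that rose together in Pkd1-/- cells.

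In wild-type cells, the epithelial-side regulators were expressed at levels far above the mesenchymal-side factors. Per kb of exon, Esrp1 had a level of 766 ± 18.7 (SD, n = 4) normalized counts, Esrp2 460 ± 14.9, Grhl2 389 ± 16.0 and Ovol1 90.5 ± 14.8. These 4 levels did not overlap between neighbours in the order, and they stood at percentiles 88.0, 80.0, 77.1 and 51.9 of all tested genes. Twist1 (3.99), Snai1 (3.70), Zeb2 (3.51), Twist2 (1.89) and Zeb1 (0.731) followed, and neighbours in the order of these 5 overlapped across the 4 libraries. Snai2 was listed at 0 in all 12 libraries, which leaves room for up to 3 counts in each. The order of the 4 epithelial-side regulators was the same in Pkd1-/- and Pkd2-/- cells, except that the libraries of Esrp2 and Grhl2 overlapped in Pkd2-/- cells. At the other end, Twist1 was at percentile 45.2 in Pkd1-/- cells, with 52.4 ± 10.98 normalized counts per kb, above every other mesenchymal-side member there, and at percentile 3.3 in Pkd2-/- cells, with 0.154 ± 0.307.

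**Figure D1:**
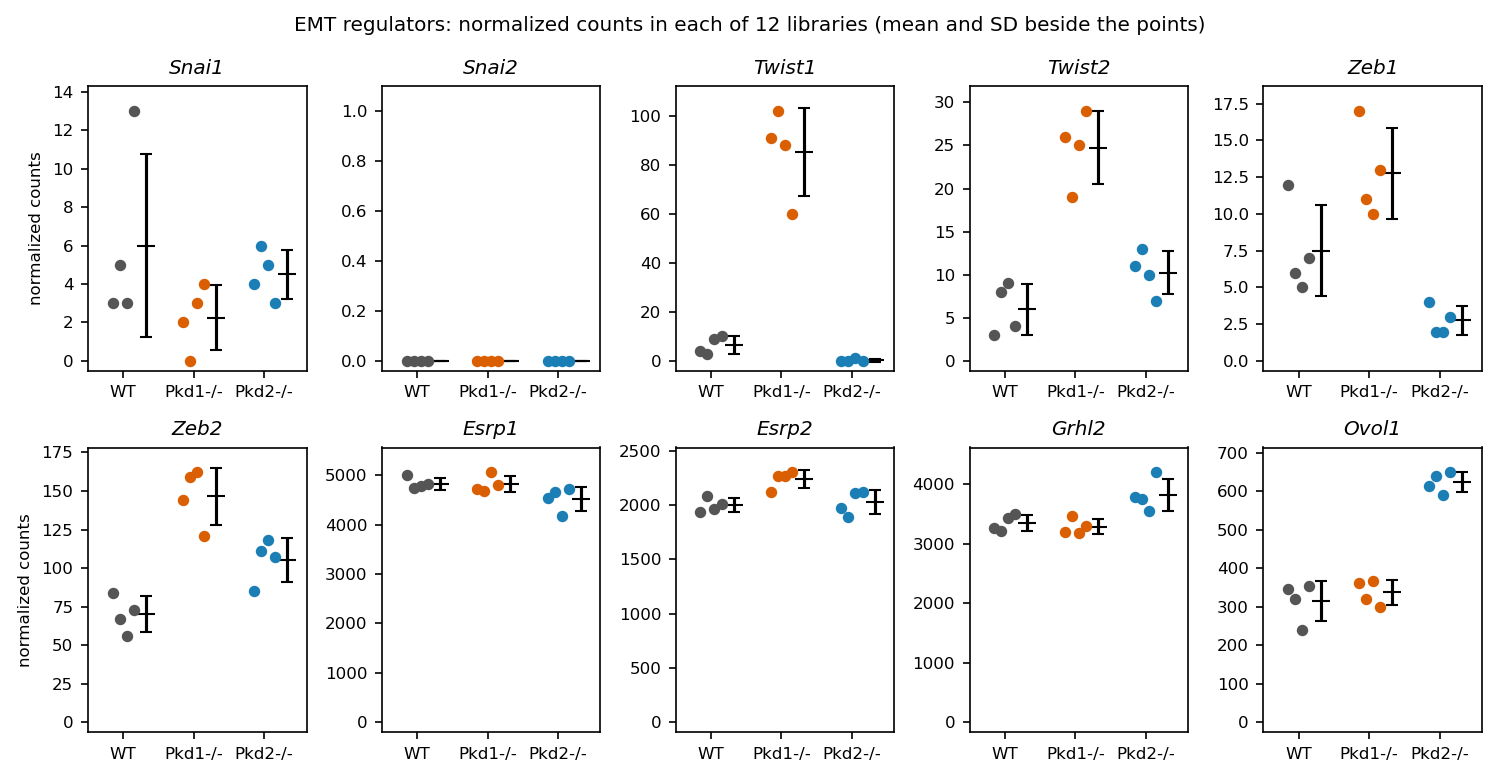
Normalized counts (y axis, linear, a scale of its own for each gene) of the 10 EMT regulators in each library of wild-type (WT), Pkd1-/- and Pkd2-/- cells; points are libraries, and the bar beside them gives the mean and SD of the 4. The Pkd1-/- libraries of Twist1 lie between 60 and 102 normalized counts, against 3 to 10 in wild-type and 0 to 1 in Pkd2-/- cells, while Ovol1 stands apart in Pkd2-/- cells.

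Against wild-type cells, Pkd1-/- cells had more Twist1, Twist2 and Zeb2 transcript, and no member was called lower. These are 3 of the 9 members tested, or 33.3%, where 6.24% of all genes tested were called in this comparison and 2.96% were called higher. In Pkd2-/- cells, Twist1 and Zeb1 were called lower and no member was called higher, which is 2 of 9 members where 9.62% of all genes were called, 3.24% higher and 6.38% lower. By limma at an unadjusted p under 0.05 alone, 5 of 9 members passed in Pkd1-/- cells, 4 higher and 1 lower (Snai1). In Pkd2-/- cells 6 of 9 passed, 4 higher (Twist2, Zeb2, Grhl2 and Ovol1) and 2 lower (Twist1 and Zeb1). Of all genes, 36.7% and 48.3% passed in either direction. Twist1 moved in opposite directions in the mutants. In bulk RNA, a change in every cell and a change in the share of cells that express a gene cannot be told apart.

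Twist1 (ENSMUSG00000035799.5, chr12:33957671-33959829, plus strand, GRCm38), a factor of mesoderm and neural crest development, had 4, 3, 9 and 10 normalized counts in wild-type libraries 1 to 4. It had 91, 102, 88 and 60 in the Pkd1-/- libraries, and 0, 0, 1 and 0 in the Pkd2-/- libraries. The 3 genotypes did not overlap: every Pkd1-/- library was above, and every Pkd2-/- library below, all wild-type libraries. In Pkd1-/- cells the mean was 85.2 ± 17.9 against 6.5 ± 3.51 in wild-type (SD, n = 4), a 13.1-fold difference, and the log2 fold change was 3.63 (SE 0.39, 95% interval 2.81 to 4.45, limma adjusted p = 8.23e-07). In Pkd2-/- cells the log2 fold change was -2.53 (95% interval -3.35 to -1.71, limma adjusted p = 3.18e-05). Because the Pkd2-/- libraries summed to 1 count, against 26 in wild-type, the size of this fall is poorly bounded: the ratio of the sums was 26, with an exact binomial 95% interval of 4.27 to 1066 that treats normalized counts as reads and covers counting error only. Between the mutants, the ratio of the sums, 341 to 1, had an interval of 60.8 to 13508.

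Twist2 (ENSMUSG00000007805.4, chr1:91801461-91848028, plus strand), its close relative, had 3, 8, 9 and 4 normalized counts in wild-type, 26, 19, 25 and 29 in Pkd1-/- and 11, 13, 10 and 7 in Pkd2-/- cells. All Pkd1-/- libraries were above those of the other genotypes, whereas wild-type and Pkd2-/- libraries overlapped. The log2 fold change was 1.97 in Pkd1-/- cells (SE 0.34, 95% interval 1.26 to 2.67, limma adjusted p = 0.000176), a 4.12-fold difference in mean. For Pkd2-/- cells it was 0.76 (95% interval 0.05 to 1.47, limma adjusted p = 0.0795) and was not called. An antisense gene in the Twist2 locus, Gm29100, had means of 2.75, 7.25 and 2 normalized counts in wild-type, Pkd1-/- and Pkd2-/- cells, and since the strand setting of the counting is not given in the sources used here, reads of the pair cannot be told apart.

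Zeb2 (ENSMUSG00000026872.17, chr2:44983632-45117395, minus strand) was the ZEB gene with more transcript, with 84, 67, 56 and 73 normalized counts in wild-type, 144, 159, 162 and 121 in Pkd1-/- and 85, 111, 118 and 107 in Pkd2-/- libraries. All libraries of both mutants lay above wild-type, those of Pkd2-/- cells by as little as 1 count (85 against 84), and Pkd1-/- libraries were highest. The log2 fold change was 1.06 in Pkd1-/- cells (SE 0.15, 95% interval 0.74 to 1.38, limma adjusted p = 2.52e-05) and 0.59 in Pkd2-/- cells (95% interval 0.27 to 0.90, limma adjusted p = 0.0039), the latter under the fold threshold. Without wild-type library 3, the lowest of its group, the Pkd1-/- value was 0.96 and fell under the threshold as well. The antisense gene Zeb2os had a mean of at most 2 normalized counts in each genotype.

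Zeb1 (ENSMUSG00000024238.13, chr18:5591860-5775467, plus strand), a repressor of Cdh1 and target of Ovol1 in other cells, had 12, 6, 5 and 7 normalized counts in wild-type, 17, 11, 10 and 13 in Pkd1-/- and 4, 2, 2 and 3 in Pkd2-/- libraries. All Pkd2-/- libraries were below all others, while wild-type and Pkd1-/- libraries overlapped. The log2 fold change was -1.15 in Pkd2-/- cells (95% interval -1.90 to -0.41, limma adjusted p = 0.0132) and 0.73 in Pkd1-/- cells (95% interval -0.01 to 1.48, limma adjusted p = 0.144). The Pkd2-/- call rests on few counts: without wild-type library 1, which held the most, the log2 fold change was -0.92 with a limma adjusted p of 0.0536, and with a pseudocount of 5 it was -0.67.

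Snai1 (ENSMUSG00000042821.7, chr2:167538195-167542814, plus strand), a direct repressor of Cdh1, had 3, 5, 3 and 13 normalized counts in wild-type, 2, 0, 3 and 4 in Pkd1-/- and 4, 6, 5 and 3 in Pkd2-/- libraries. All 3 genotypes overlapped. The log2 fold change was -1.12 in Pkd1-/- cells (95% interval -2.23 to -0.02, limma adjusted p = 0.131) and -0.17 in Pkd2-/- cells (95% interval -1.28 to 0.94, limma adjusted p = 0.835), and both intervals span more than 2 log2 units at these low counts. Snai2 (ENSMUSG00000022676.6, chr16:14705852-14709385, plus strand), which encodes Slug, had no count in any library and was not tested.

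**Figure D2:**
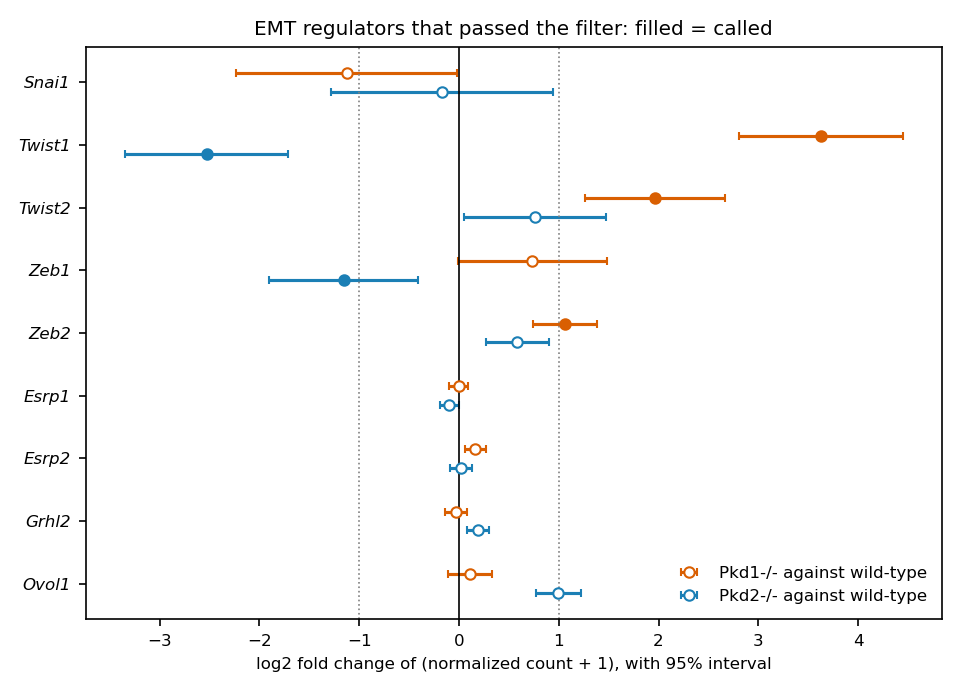
Log2 fold change of (normalized count + 1) of the 9 tested EMT regulators in Pkd1-/- (orange) and Pkd2-/- cells (blue) against wild-type, with limma's 95% interval; filled points were called, and dotted lines mark the fold threshold. The points of Twist1 lie on opposite sides, at 3.63 and -2.53, and the intervals of Esrp1, Esrp2 and Grhl2 are narrow and close to 0.

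The epithelial-side regulators stayed within narrow limits in both mutants, apart from Ovol1. Esrp1 (ENSMUSG00000040728.15, chr4:11331933-11386783, minus strand) had 4997, 4730, 4771 and 4811 normalized counts in wild-type, 4723, 4686, 5053 and 4806 in Pkd1-/- and 4534, 4660, 4179 and 4724 in Pkd2-/- libraries. The Pkd2-/- libraries lay just below those of wild-type, and the Pkd1-/- libraries overlapped with wild-type. The log2 fold change had a 95% interval of -0.10 to 0.09 in Pkd1-/- cells (limma adjusted p = 0.974) and of -0.19 to 0.00 in Pkd2-/- cells (estimate -0.095, limma adjusted p = 0.113).

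Esrp2 (ENSMUSG00000084128.10, chr8:106130319-106136974, minus strand) had 1937, 2083, 1959 and 2010 normalized counts in wild-type, 2118, 2267, 2271 and 2299 in Pkd1-/- and 1975, 1891, 2114 and 2124 in Pkd2-/- libraries. All Pkd1-/- libraries were above wild-type, by a log2 fold change of 0.16 (95% interval 0.06 to 0.27, limma adjusted p = 0.0199). For Pkd2-/- cells, which overlapped with wild-type, the interval was -0.09 to 0.13 (limma adjusted p = 0.797). Esrp2 overlaps the opposite-strand gene Nfatc3, which had means of 3674, 3949 and 4072 normalized counts in wild-type, Pkd1-/- and Pkd2-/- cells, and the same limit on strand applies.

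Grhl2 (ENSMUSG00000022286.15, chr15:37233036-37363569, plus strand) had 3267, 3212, 3432 and 3505 normalized counts in wild-type, 3201, 3467, 3191 and 3305 in Pkd1-/- and 3786, 3760, 3552 and 4201 in Pkd2-/- libraries. All Pkd2-/- libraries were above wild-type, by a log2 fold change of 0.19 (95% interval 0.08 to 0.30, limma adjusted p = 0.00726), and Pkd1-/- libraries overlapped with wild-type (95% interval -0.14 to 0.08, limma adjusted p = 0.767). Its antisense gene Gm16136 had means of 1078, 918 and 837 normalized counts in wild-type, Pkd1-/- and Pkd2-/- cells, and the same limit on strand applies.

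Ovol1 (ENSMUSG00000024922.1, chr19:5549136-5560646, minus strand), a zinc finger repressor of epithelia, had 347, 321, 241 and 353 normalized counts in wild-type, 362, 321, 367 and 300 in Pkd1-/- and 615, 639, 591 and 649 in Pkd2-/- libraries. Every Pkd2-/- library was above every other library. The mean was 1.98-fold that of wild-type, and the log2 fold change of 0.996 (SE 0.11, 95% interval 0.77 to 1.22, limma adjusted p = 3.22e-07) fell just short of the fold threshold of 1. Leaving out any of 5 single libraries (wild-type 1, 2 or 4, Pkd2-/- 1 or 3) brought it to between 1.00 and 1.05, past the threshold. In Pkd1-/- cells the log2 fold change was 0.11 (95% interval -0.11 to 0.33, limma adjusted p = 0.513).

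At an adjusted p under 0.05 with no fold threshold, 4 members were higher in Pkd1-/- cells (Twist1, Twist2, Zeb2 and Esrp2), where 27.1% of all genes passed. In Pkd2-/- cells, 3 were higher (Zeb2, Grhl2 and Ovol1) and 2 lower (Twist1 and Zeb1), where 42.3% of all genes passed. Between the mutants, 2 were higher and 5 lower, where 46.3% of all genes passed. Libraries of the genotypes compared did not overlap for 4 of 9 members in Pkd1-/- cells, for 6 of 9 in Pkd2-/- cells and for 6 of 9 between the mutants, against 27.1%, 37.2% and 41.8% of all genes. A two-sided exact permutation test on a single gene gives p = 0.029 in each of these cases, the smallest that 4 libraries against 4 allow. With Pkd2-/- compared directly with Pkd1-/- cells, 3 members were called, where 11.8% of all genes were (4.53% higher, 7.23% lower): Twist1 (log2 fold change -6.15, limma adjusted p = 2.03e-10), Twist2 (-1.21, 0.00599) and Zeb1 (-1.88, 0.000215), all lower in Pkd2-/- cells. Zeb2 was also lower in Pkd2-/- than in Pkd1-/- cells, by less than the fold threshold (-0.47, limma adjusted p = 0.0146), and Ovol1 (0.89, limma adjusted p = 1.09e-06) and Grhl2 (0.21, 0.00235) were higher. The 3 comparisons share their libraries and are not independent of each other.

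Of 5 relatives of the members, 4 were tested, and 1 was called in each mutant. This is 25% of those tested, where 6.24% and 9.62% of all genes were called in Pkd1-/- and Pkd2-/- cells. Grhl3, a Grainyhead-like factor of the epidermis, rose in Pkd1-/- cells, from 79, 63, 87 and 59 normalized counts in wild-type to 184, 189, 157 and 158, with 49, 68, 33 and 73 in Pkd2-/- cells. Its log2 fold change was 1.26 in Pkd1-/- cells (limma adjusted p = 0.000117) and -0.41 in Pkd2-/- cells (0.124). Ovol2, which represses mesenchymal genes as Ovol1 does, had 193, 212, 173 and 200 normalized counts in wild-type, 161, 134, 170 and 124 in Pkd1-/- and 104, 77, 107 and 85 in Pkd2-/- cells. Ovol2 therefore fell in the Pkd2-/- libraries in which Ovol1 was highest (log2 fold change -1.06, limma adjusted p = 3.25e-06), and was also below wild-type in all Pkd1-/- libraries (-0.41, limma adjusted p = 0.0309). Grhl1 was higher in Pkd2-/- cells by 0.40 (limma adjusted p = 0.000444) and at 0.04 in Pkd1-/- cells (0.785), and Snai3 was at 0.48 in Pkd1-/- cells (0.0358) and -0.13 in Pkd2-/- cells (0.569). Ovol3 was at 0 in every library but Pkd1-/- library 2, which held 2 normalized counts.

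Among 14 other transcription factors of the mesenchymal side, 10 were tested, and 1 was called in each mutant, both higher, a share of 10% where 6.24% and 9.62% of all genes were called. Sox9, a factor of progenitor cells and injured tubules, had 22 to 43 normalized counts in wild-type, 64 to 102 in Pkd1-/- and 23 to 52 in Pkd2-/- cells (log2 fold change 1.18 in Pkd1-/-, limma adjusted p = 0.00156). Fosl1, the AP-1 subunit Fra-1, had means of 112.5 ± 7.05 in wild-type, 198.8 ± 21.6 in Pkd1-/- cells and 297.2 ± 40.2 in Pkd2-/- cells (SD, n = 4), a log2 fold change of 0.81 and 1.39 (limma adjusted p = 1.77e-05 and 8.44e-09), so that only the latter was past the fold threshold. Of 12 other factors of the epithelial side, 10 were tested. The share called was 20% in Pkd1-/- cells (6.24% of all genes) and 10% in Pkd2-/- cells (9.62% of all genes). In Pkd1-/- cells Gata3, a factor of the nephric duct, fell from a mean of 226.8 to 48.5 normalized counts (log2 fold change -2.20, limma adjusted p = 6.34e-10), and Elf5 was called higher at 1, 6, 12 and 4 counts against 0, 1, 0 and 0, with libraries that overlap. Elf5 averaged 5.75 in Pkd1-/- cells and 0.25 in each other genotype, so it passed the filter only through the group where it was called. The share of 20% includes Elf5 and is therefore not read as a result. In Pkd2-/- cells the Krüppel-like factor Klf4 was called lower, at 0 in all 4 libraries against 2, 5, 4 and 7 in wild-type, at least 1.5-fold lower when set against 3 counts per library, and Gata3 had a mean of 354.2 (log2 fold change 0.64, limma adjusted p = 0.000968).

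Partners and protein-stability factors of the Snail, Twist and ZEB proteins were mostly below the fold threshold. Of 18 corepressors and partners, Loxl3, a lysyl oxidase-like enzyme, was called higher in Pkd1-/- cells, with 132 to 148 normalized counts against 53 to 75 in wild-type and 31 to 52 in Pkd2-/- cells (log2 fold change 1.00, at the threshold, limma adjusted p = 0.000253). This call makes up 5.56% of the list, where 6.24% of all genes were called. No corepressor or partner was called in Pkd2-/- cells, although 4 were higher and 5 lower at a limma adjusted p under 0.05, where 42.3% of all genes passed, and 4 and 8 at an unadjusted p under 0.05, where 48.3% did. Of 12 genes for the turnover of Snail or ZEB proteins, 8.33% were called in Pkd1-/- cells and 16.7% in Pkd2-/- cells. Over all genes, the shares were 6.24% and 9.62%. The p21-activated kinase Pak1, whose product phosphorylates Snail, had 14, 22, 16 and 21 normalized counts in Pkd2-/- cells. Wild-type libraries had 567, 598, 595 and 562 (log2 fold change -4.94, limma adjusted p = 5.38e-16). In Pkd1-/- cells Pak1 had 414 to 473 (log2 fold change -0.36, limma adjusted p = 0.039). The kinase gene Prkd1 was called lower in both mutants, from 2 to 5 counts in wild-type to 0 in all Pkd1-/- libraries and to 0, 0, 1 and 0 in Pkd2-/- cells. When set against 3 counts per library, Prkd1 was at least 1.17-fold lower in Pkd1-/- cells. Prkd1 averaged 3.5 in wild-type and passed the filter only through that group, so lower values in the mutants were nearly fixed in advance. The shares of 8.33% and 16.7% include Prkd1 and are therefore not read as a result. Protein stability was not measured.

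Of 28 epithelial targets, junction, polarity and surface genes under Snail, ZEB, Grhl2 or Ovol control in other cells, 2 were called in each mutant (7.14%), close to the 6.24% and 9.62% of all genes called in Pkd1-/- and Pkd2-/- cells. At an adjusted p under 0.05 alone, 2 were higher and 15 lower in Pkd1-/- cells and 11 higher and 7 lower in Pkd2-/- cells, where 27.1% and 42.3% of all genes passed. The genes called in Pkd1-/- cells were Dsp (desmoplakin, of desmosomes) and Muc1, both lower. The median log2 fold change of the list was -0.14 there, against 0.01 for all genes. The Pkd2-/- calls were Dsp and Cldn3 (claudin-3), both higher, with a median of 0.07 against -0.01. Dsp went in opposite directions, at 3288, 2848, 2919 and 3008 normalized counts in wild-type, 576, 735, 685 and 699 in Pkd1-/- and 7066, 7738, 6936 and 8573 in Pkd2-/- libraries (log2 fold changes -2.16 and 1.33, limma adjusted p = 1.79e-13 and 6.33e-11). Without Pkd2-/- library 3, 4 of the 28 were called in Pkd2-/- cells: Dsp, Cldn3 and Muc1 higher (Muc1 at 1.02) and Rab25 lower (-1.02).

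Cdh1 and Epcam, the classic epithelial genes of this list, were below the fold threshold in both mutants. Cdh1 (E-cadherin) had 13696 ± 334 normalized counts in wild-type, 13965 ± 444 in Pkd1-/- cells and 15572 ± 850 in Pkd2-/- cells (SD, n = 4). Its log2 fold change was 0.03 in Pkd1-/- cells (limma adjusted p = 0.722) and 0.18 in Pkd2-/- cells (0.00296), so that Cdh1 was not lower in the cells with more Twist1, Twist2 and Zeb2. Epcam had 22381 ± 1397, 20838 ± 567 and 17237 ± 793 normalized counts, with log2 fold changes of -0.10 (limma adjusted p = 0.154) and -0.38 (6.05e-06).

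Of 24 mesenchymal targets, 20 were tested. In Pkd1-/- cells 6 were called higher (Col3a1, Postn, Vim, Ddr2, S100a4 and Cdh2) and Mmp2 was called lower, 35% of the list (6.24% of all genes) with a median log2 fold change of 0.38. Among Pkd2-/- libraries 7 were called lower (Postn, Mmp2, Acta2, Itga5, Tagln, Fn1 and Pdgfrb) and Cdh2 was called higher, 40% of the list (9.62% of all genes) with a median of -0.28. Pdgfrb was at 0 in all Pkd2-/- libraries against 2, 0, 4 and 4 normalized counts in wild-type, so that the libraries overlapped. Between the mutants, 12 were called, all lower in Pkd2-/- cells. This is 60% of those tested, where 11.8% of all genes were called and 7.23% were called lower.

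**Figure D3:**
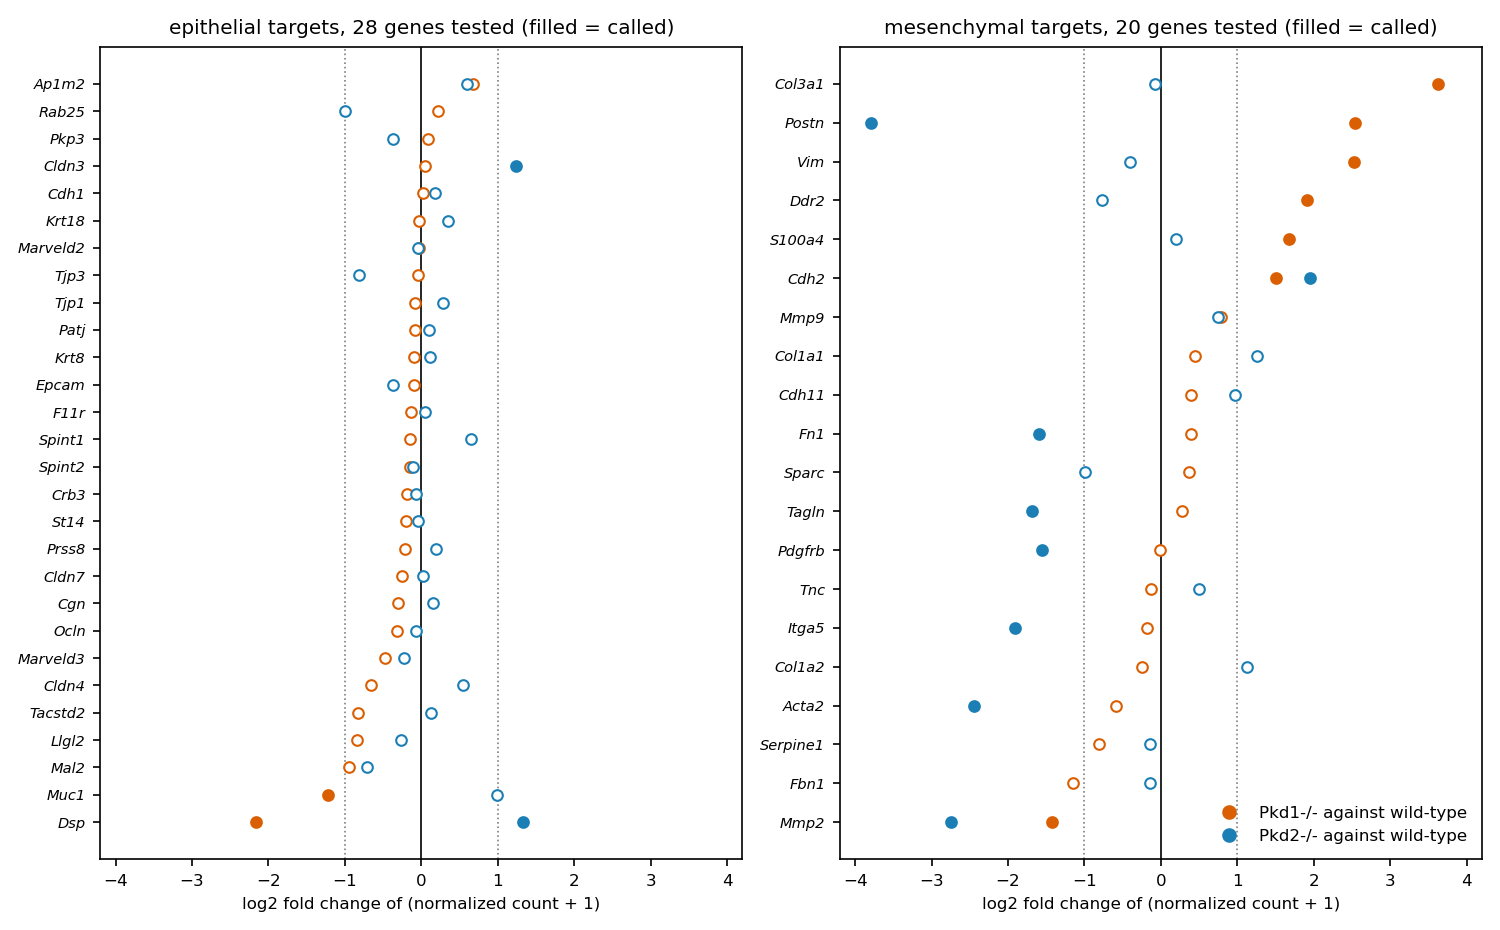
Log2 fold change of (normalized count + 1) of each tested epithelial target (left, 28 genes) and mesenchymal target (right, 20 genes) in Pkd1-/- (orange) and Pkd2-/- cells (blue) against wild-type; filled points were called, and genes are ordered by the Pkd1-/- value. Most epithelial targets lie between the dotted fold thresholds, while mesenchymal targets such as Postn spread to 2.54 and -3.79.

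Vim (vimentin, an intermediate filament of mesenchymal cells) had 43, 27, 31 and 32 normalized counts in wild-type, 211, 185, 202 and 179 in Pkd1-/- and 33, 18, 18 and 33 in Pkd2-/- libraries. Only the Pkd1-/- libraries stood apart (log2 fold change 2.53, limma adjusted p = 3.95e-08), and the Pkd2-/- value was -0.41 (0.142). Cdh2 (N-cadherin) rose in both mutants, from 113.5 ± 17.99 to 323 ± 41.0 (Pkd1-/-) and 439.5 ± 40.2 (Pkd2-/-) normalized counts (log2 fold changes 1.51 and 1.95, limma adjusted p = 1.19e-08 and 1.33e-10). Mmp2, a matrix metalloproteinase, fell in both, from 68.2 ± 8.26 to 25.0 ± 4.76 and 9.75 ± 3.59 (log2 fold changes -1.42 and -2.75, limma adjusted p = 0.000421 and 9.34e-08). Cdh2 and Mmp2 therefore moved in the same direction in both mutants, unlike Twist1.

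Fn1 (fibronectin, of the extracellular matrix) had 7408 ± 677 normalized counts in wild-type cells. The Pkd1-/- mean was 9746 ± 1093 and the Pkd2-/- mean 2469 ± 404, which gave log2 fold changes of 0.39 (limma adjusted p = 0.00719) and -1.60 (3.32e-10). Postn (periostin) had 81, 74, 24 and 43 in wild-type, 311, 286, 295 and 294 in Pkd1-/- and 3, 0, 22 and 1 in Pkd2-/- libraries (log2 fold changes 2.54 and -3.79, limma adjusted p = 0.00478 and 7.04e-05). Col3a1, a fibrillar collagen, had 7, 3, 3 and 6 in wild-type, 65, 69, 62 and 69 in Pkd1-/- and 16, 0, 42 and 0 in Pkd2-/- libraries (3.62 and -0.07, limma adjusted p = 0.00359 and 0.959). Pkd2-/- library 3 had the most Postn, Col3a1, Col1a1 (31) and Col1a2 (44) of its group. Without it, the log2 fold change in Pkd2-/- cells was -4.67 for Postn (limma adjusted p = 4.27e-08) and -1.09 for Col3a1 (0.245), and that of Col3a1 between the mutants went from -3.69 to -4.71. The number of mesenchymal targets called without it was 7, 8 and 12 in the 3 comparisons, as with it.

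The 8 fibroblast markers searched, 6 of which are also in the mesenchymal list, summed to 75 to 113 normalized counts per library in wild-type, 384 to 413 in Pkd1-/- and 15 to 163 in Pkd2-/- cells. Of them, Pdgfra and Lum had at most 2 counts in any library, and Dcn had means of 25.75, 20 and 16 in wild-type, Pkd1-/- and Pkd2-/- cells. The sum was higher in the genotype with more Twist1, Twist2 and Zeb2, nearly all of it through Postn and Col3a1, both also mesenchymal targets. Postn had means of 55.5 in wild-type and 296.5 in Pkd1-/- cells, and Col3a1 of 4.75 and 66.25. Pdgfrb, Col1a1 and Col1a2 averaged at most 5.25 in wild-type and Pkd1-/- cells. The part of this sum in the result was not tested. Endothelial markers summed to at most 10 counts, with Cdh5 and Kdr at 0 everywhere, and leukocyte markers to 47 to 73, with Cd3e, Adgre1 and Itgam at 0. Proximal tubule markers summed to 480 to 557 in wild-type, 33 to 71 in Pkd1-/- and 744 to 1222 in Pkd2-/- cells, nearly all of it Lrp2 (means 508, 46.2 and 934.5), with Cubn at means of 3.75, 8 and 4 and Slc34a1 and Slc22a6 at 0 everywhere.

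On the splicing side, none of the 11 tested RNA-binding proteins linked to exon choice in EMT other than Esrp1 and Esrp2 was called by limma in either mutant, although 5 passed an adjusted p under 0.05 in Pkd1-/- and 6 in Pkd2-/- cells, where 27.1% and 42.3% of all genes did (6 and 6 at an unadjusted p, where 36.7% and 48.3% did). Of 13 genes with exons under Esrp control in other cells, 1 was called in each mutant. That is 7.69% of the list, close to the 6.24% and 9.62% of all genes called. The gene was Cd44, a hyaluronan receptor, which went in opposite directions. Its gene-level values were 478, 429, 406 and 428 normalized counts in wild-type, 973, 1120, 1066 and 996 in Pkd1-/- and 167, 246, 176 and 198 in Pkd2-/- libraries (log2 fold changes 1.25 and -1.16, limma adjusted p = 1.71e-08 and 2.37e-08). Exon use was not analysed here. Of 7 precursor or host genes of the miR-200 and miR-205 families, which target Zeb transcripts, 6 were in the table, all at 0 in every library. Mature microRNAs were not measured, so these values do not show whether the microRNAs were present.

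The position of the members on the chromosomes was examined through the expressed genes (averaging 10 normalized counts or more) within 1 Mb. Around Twist1, Twist2, Zeb1 and Zeb2, the median log2 fold change of the 2 to 19 neighbours lay between -0.17 and 0.16 in both mutants, smaller in size than the log2 fold change of the member itself in each case. Over all genes averaging 10 or more, the median was 0.01 in Pkd1-/- and -0.01 in Pkd2-/- cells. Snai1 lay among 21 expressed neighbours that were all higher in Pkd2-/- than in wild-type cells, with a median log2 difference of 0.66. Of these neighbours 5 were called higher, where 3.24% of all genes tested were. Snai1 itself was at -0.17 there, and in Pkd1-/- cells the median of the same neighbours was 0.05. Around Ovol1, 67 of 85 neighbours were higher in Pkd2-/- cells, with a median of 0.24, and 76 of 85 in Pkd1-/- cells, with a median of 0.22. The log2 fold change of Ovol1 was above that median in Pkd2-/- cells (0.996) and below it in Pkd1-/- cells (0.11).

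**Figure D4:**
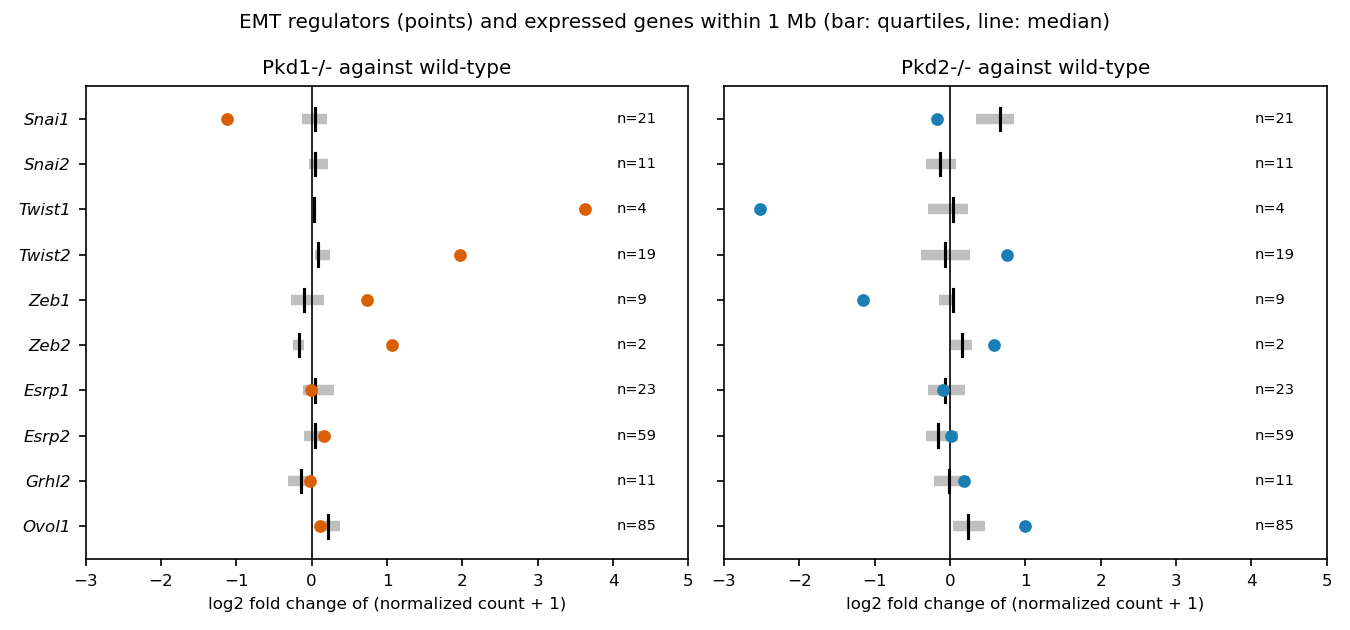
Log2 fold change of (normalized count + 1) of each EMT regulator (point; none for Snai2, which was not tested) beside genes within 1 Mb that averaged 10 normalized counts or more (grey bar, quartiles; black line, median; n, their number), for Pkd1-/- (left) and Pkd2-/- cells (right) against wild-type. The neighbours of Snai1 have a median of 0.66 in Pkd2-/- cells, and Twist1 lies far from its 4 neighbours in both panels.

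For called members that averaged 10 normalized counts or more, the genes most like them across the 12 libraries were ranked, as a description. Pearson's r of log2(normalized count + 1) was used among 11398 genes that averaged 50 normalized counts or more. Zeb1, with a mean of 7.67 over the 12 libraries, was therefore left out. For Twist1 these were Taf6, a subunit of the transcription factor TFIID (r = 0.988), the ephrin receptor gene Epha3 (0.986) and the guidance receptor gene Robo1 (0.986). Epha3 had means of 16.2, 677.5 and 0 normalized counts and Robo1 of 8.25, 563.2 and 0.25 in wild-type, Pkd1-/- and Pkd2-/- cells, the same order as Twist1. Taf6 had means of 1399, 1816 and 1223, in the same order but with far smaller changes, since r does not measure the size of a change. For Twist2 they were Mvd (0.966), Dtnbp1 (0.955) and Sigirr (0.952), and for Zeb2 they were Tcf7 (0.948), Pde4d (0.945) and Mapt (0.932). With 3 genotypes, such values rest largely on the genotype means, and the libraries of a genotype share a clone.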

How the data were processed

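RNA from 12 dishes of mIMCD3 cells (4 wild-type, 4 Pkd1-/-, 4 Pkd2-/-) was sequenced. Before deposit, the authors used Trim Galore for trimming, HISAT2 for alignment to GRCm38, HTSeq for gene counts and DESeq2 for size factors. The deposited score values are DESeq2-scaled counts that the authors rounded to whole numbers: in 6 of 12 libraries some whole numbers below 200 never occur. They are not read counts, so methods for read counts were not used, and depth could not be read from them. Intervals and floors (3 counts) cover counting error only.

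Groups came from the sample titles, and 0 sample columns were left unused. No pair of libraries was identical. Symbols, positions and exon lengths were taken from GENCODE M21, which holds 47223 of the identifiers. limma 3.58.1 (lmFit, eBayes with trend; R 4.3.3) was fitted to log2(normalized count + 1) of the 18552 genes averaging 1 or more, with all 12 libraries in 1 model. Two-sided p-values were adjusted per comparison (Benjamini-Hochberg). Tables were made with Python 3.11.15, pandas 2.3.3 and scipy 1.17.1, and the fit was tested on simulated data. The members, lists and tests were chosen with earlier results of these data known. Named were all members, their family relatives, Cdh1, Epcam, Vim, Cdh2 and Fn1, and from each list the genes called in both mutants in 1 direction (at most 5) and the gene with the largest called change in each mutant. Gata3, Muc1, Cldn3, Rab25, Ddr2, S100a4, Acta2, Itga5, Tagln, Pdgfrb, Epha3, Robo1, Lrp2, Cubn, Col1a1 and Col1a2 fall outside this rule or were given values beyond it, and were chosen after their values were seen. Alternatives were other pseudocounts, filters, scaling, models and thresholds, a replicate block, and each library left out in turn.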

Additional observations from a re-analysis of the deposited data

Results flagged for a closer look

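Of 55 sets of 4 libraries examined, 2 held a library far from the other 3 by Dixon's criterion (gap over range above the critical value for 4 samples), and chance flags about 5% of such sets. Both had all their counts in 1 library, with a gap over range of 1: Twist1 in Pkd2-/- cells (0, 0, 1 and 0) and Ovol3 in Pkd1-/- cells (0, 2, 0 and 0).

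The differences of the 2 clones from wild-type cells differed from each other, by limma's test of Pkd2-/- against Pkd1-/- cells, for Twist1 (log2 difference -6.15), Twist2 (-1.21), Zeb1 (-1.88), Grhl3 (-1.67), Vim (-2.94) and Fn1 (-1.99), in each case lower in Pkd2-/- cells. These results were picked out because the difference itself was past the adjusted p and the fold threshold.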

How the results depend on the processing

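The members called in Pkd1-/- cells were 3, 4 with no fold threshold and 2 to 3 with single libraries left out, Zeb2 being lost without wild-type library 3. In Pkd2-/- cells, 2 were called, 2 to 3 with libraries left out, 1 with a pseudocount of 5, 1 with a minimum mean of 10 (Zeb1 is then not tested) and 5 with no fold threshold. Between the mutants, 3 were called, 3 with any library left out, 2 with a pseudocount of 5 (Twist2 at -0.97), 2 with a minimum mean of 10 and 7 with no fold threshold. Over all genes, no fold threshold gave 5020, 7852 and 8588 calls in place of 1158, 1785 and 2182, a minimum mean of 10 gave 739, 1202 and 1458, and leaving out libraries gave 1095 to 1164, 1698 to 1793 and 2061 to 2186. Small differences changed sign: with libraries rescaled to the same upper quartile, Esrp1 in Pkd1-/- cells (0.00888) and Esrp2 in Pkd2-/- cells (-0.0114). With libraries left out, Esrp1 (-0.0266 to 0.0134) and Ovol1 (-0.0158 to 0.167) in Pkd1-/- cells and Snai1 (-0.369 to 0.234) and Esrp2 (-0.00379 to 0.0521) in Pkd2-/- cells did so. Where no cause is named, the cause was not tested. Removing Pkd2-/- library 3 from the target lists was chosen after seeing the data.

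Replicate numbers did not pair the libraries: same-numbered deviations from the group means correlated at -0.0726 to 0.2. With a replicate block, 3, 2 and 3 members were called, and 1170, 1790 and 2183 genes in all. Factors at about 10 or fewer normalized counts (Snai1, Twist2 in wild-type and Pkd2-/- cells, Zeb1, Twist1 outside Pkd1-/- cells) are limited by counting.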
